A study of Mus musculus with 46 samples.

Results

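During reprogramming of mouse embryonic fibroblasts (MEF) to induced pluripotent stem cells, the culture medium was replaced after about 7 days, and the genes that moved between day 7 and day 8 were compared in cells carrying 1 of 2 factor combinations. A gene counted as moved alike when the averaged day 8 minus day 7 difference had an adjusted p under 0.05 and the difference was at least 1 in size, with 1 sign, on the log2(FPKM + 1) scale in each combination. Of 16842 genes tested among 37108 in the table, 278 met this rule, 110 of them higher and 168 lower on day 8. The comparison rested on 7 of the 46 RNA-seq samples of the series.

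All 7 libraries came from OG2 MEF, isolated from E13.5 embryos of OG2 males and 129 females and carrying an Oct4-GFP reporter. Every culture had received retroviral (pMXs) Oct4, whose gene symbol is Pou5f1, on top of a Nanog virus. In the Nanog+Oct4 group the second factor was native Nanog, with 2 libraries on day 7 and 2 on day 8. In the NanogN70+Oct4 group it was Nanog fused to the N-terminal part of SS18 that binds BRG1, which the study also calls NanogBiD, with 2 libraries on day 7 and 1 on day 8. The cells were bulk cultures of infected MEF and not clones, so fewer cells of a type and less RNA per cell cannot be told apart. Nothing in the labels says that replicates were separate cultures, so p-values measure only the spread between these samples. Days are counted from the end of infection. Cells were kept in iCD3, an induction medium whose composition is not given in the sources used here, until about day 7, and then in N2B27 with 2iL (LIF, the GSK3 inhibitor CHIR99021 and the MEK inhibitor PD0325901), the medium in which the mouse embryonic stem cells (mES) of the study were also kept. No library of day 8 was labelled as kept in iCD3, so the medium and the passing of 1 day cannot be told apart.

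As background, MEK is the kinase that activates ERK, and ERK switches on immediate early genes such as Egr1 and, as negative feedback, the dual-specificity phosphatases and Sprouty proteins that dampen the same pathway. GSK3 inhibition stabilises beta-catenin and thereby raises Wnt target genes, and LIF acts through Stat3 on genes that include Klf4 and Socs3. Serum response factor (SRF) and the YAP coactivator drive genes of the actin cytoskeleton in fibroblasts, which carry a high level of such transcripts at the start of reprogramming.

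Replicate libraries of the 3 groups that had 2 correlated at r = 0.984, 0.987 and 0.976 across genes, which are not independent replicates. The depth is not part of the table, but the value of 1 read gave relative depths of 1.00 to 1.13 for the day 7 libraries and the NanogN70+Oct4 day 8 library, and of 1.98 to 2.08 for the Nanog+Oct4 day 8 libraries. Depth and day therefore cannot be told apart within Nanog+Oct4, whereas the NanogN70+Oct4 libraries were of like depth. Between 13416 and 13873 genes reached 1 FPKM in each of the 7. Mitochondrially encoded transcripts took 13.3% to 17.1% of the summed FPKM in the 4 day 7 libraries and 8.75% to 10.1% in the 3 day 8 libraries. All 11 of these transcripts that were tested had a negative averaged difference (median -0.66), and 1 of them, ND6, was called, although it lost the call in 11 of 13 other settings. The part of this shift in the results below was not tested.

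The genes higher in both combinations were 110 (0.653% of those tested) and the genes lower in both were 168 (0.998%), together 278 (1.65%). The averaged test alone, with no demand on size or sign, called 3444 (20.4%), of which 1799 were higher and 1645 lower. Over all genes tested 9796 had a positive and 6976 a negative averaged difference. In its own test each combination moved further, since 673 genes (4%) were higher and 515 (3.06%) lower in Nanog+Oct4, and 410 (2.43%) were higher and 362 (2.15%) lower in NanogN70+Oct4. The balance in NanogN70+Oct4 turned with quantile normalization (355 higher of 809), rescaling to a common total (423 of 911), a pseudocount of 0.1 (374 of 805) and a mean of at least 5 FPKM (134 of 346). Only 5 genes (0.0297%) were called in opposite directions, and these were Adamts5, Cdh6 and Clca3a1 (0.0178%), called higher with Nanog+Oct4 and lower with NanogN70+Oct4, and Fbxo15 and Morc1 (0.0119%), called the other way round. Under the stricter demand that each combination passed on its own, 66 genes (0.392%) were higher and 143 (0.849%) lower. The median averaged difference was 1.47 among the genes that rose and -1.44 among those that fell, against 0.07 over all genes tested. Within each combination the day 8 values lay above every day 7 value in 109 of the 110 genes, and below every day 7 value in all 168 of the others, against 19.0% and 14.5% of all genes tested. The rule used this contrast, so nothing is read from these shares. Several genes appear in the table under an older and a current symbol with equal or nearly equal values, and joining them left 107 genes higher and 162 lower.

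**Figure D1:**
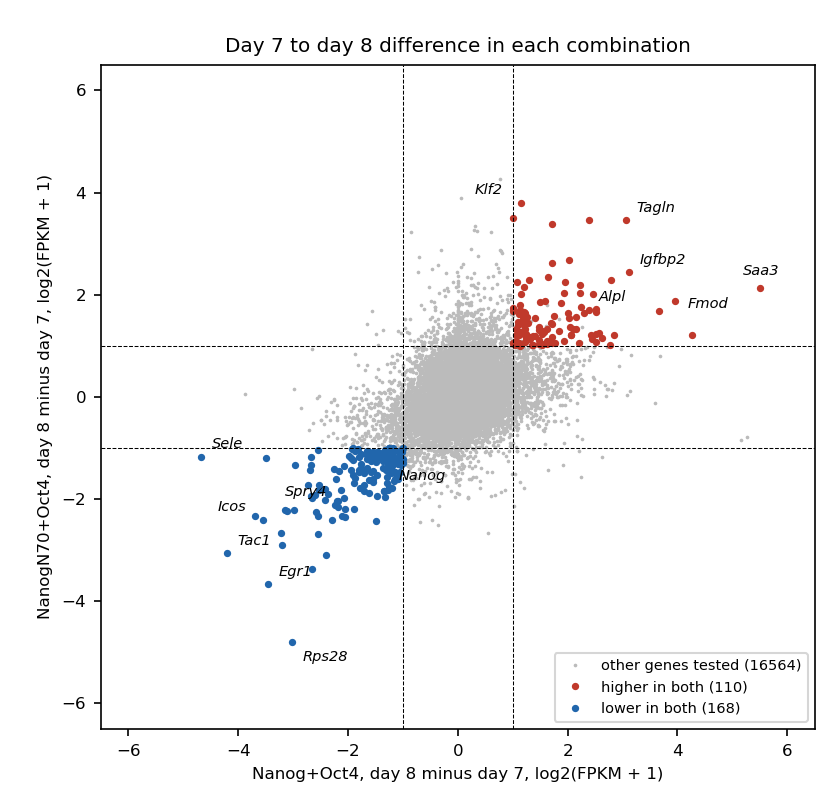
Difference between day 8 and day 7 on the log2(FPKM + 1) scale in Nanog+Oct4 (horizontal axis) and NanogN70+Oct4 (vertical axis), 1 point per gene. The dashed lines mark a difference of 1 in size, and the 110 red and 168 blue points are the genes called higher and lower in both.

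Of 29 ERK target and feedback genes tested, 5 were lower in both combinations (Egr1, Etv4, Spry4, Dusp6 and Dusp4) and 0 were higher. A negative averaged difference was found in 25, against 6976 of 16842 over all genes. By the averaged test alone 16 were lower and 1 higher, against 1645 and 1799 of 16842. The median averaged difference of the list was -0.70, with -0.88 in Nanog+Oct4 and -0.45 in NanogN70+Oct4, where 13 and 4 members were called lower in the own test of each. Egr1, an immediate early transcription factor, stood at 31.3 and 27.7 FPKM in the Nanog+Oct4 libraries of day 7 and at 1.57 and 1.99 on day 8, and at 16.2 and 10.6 against 0.118 in NanogN70+Oct4. Every day 8 library lay below every day 7 library, and by the smaller of its differences in the 2 combinations Egr1 ranked first among the genes that fell (averaged difference -3.56 ± 0.42 SE, adjusted p = 7.45e-06). Its MEF level was 34.2 and 37.6 FPKM and its mES level 0.381 FPKM.

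Spry4, a Sprouty inhibitor of receptor tyrosine kinase signalling, stayed between 23.9 and 32.2 FPKM from day 3 to day 7 in all 12 libraries and then stood at 2.74 and 3.33 FPKM in Nanog+Oct4 and at 4.92 in NanogN70+Oct4 on day 8 (averaged difference -2.60 ± 0.18 SE, adjusted p = 1.76e-08). Dusp6, the phosphatase that removes the activating phosphates of ERK, went from 15 and 20.9 FPKM to 1.51 and 2.76 in Nanog+Oct4 and from 25.6 and 40.6 to 7.77 in NanogN70+Oct4 (averaged difference -2.27 ± 0.19 SE, adjusted p = 1.37e-07). In both genes the groups did not overlap within either combination. Etv4, an ETS factor downstream of ERK, went from 30.4 and 20.9 to 2.66 and 1.51 FPKM and from 30.2 and 21.6 to 4.66 FPKM (averaged difference -2.67 ± 0.22 SE, adjusted p = 1.35e-07). Dusp4 fell less, from 19.6 and 19.4 to 4.86 and 9.89 FPKM in Nanog+Oct4 and from 25.3 and 28.3 to 12 in NanogN70+Oct4 (averaged difference -1.23 ± 0.25 SE, adjusted p = 0.00173), and it did not pass in NanogN70+Oct4 alone (adjusted p = 0.089). Maff, a small Maf factor that is in no list and was picked after its value was seen, also fell, with an averaged difference of -1.58 ± 0.21 (SE). Among the list members that missed the rule, Spry2 had an averaged difference of -0.76 and Spred1 of -0.84, both under the size limit in at least 1 combination. Gm34921, a predicted gene that overlaps the end of Dusp6, was also called lower, and without knowledge of the strand setting its reads cannot be told apart from those of Dusp6.

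**Figure D2:**
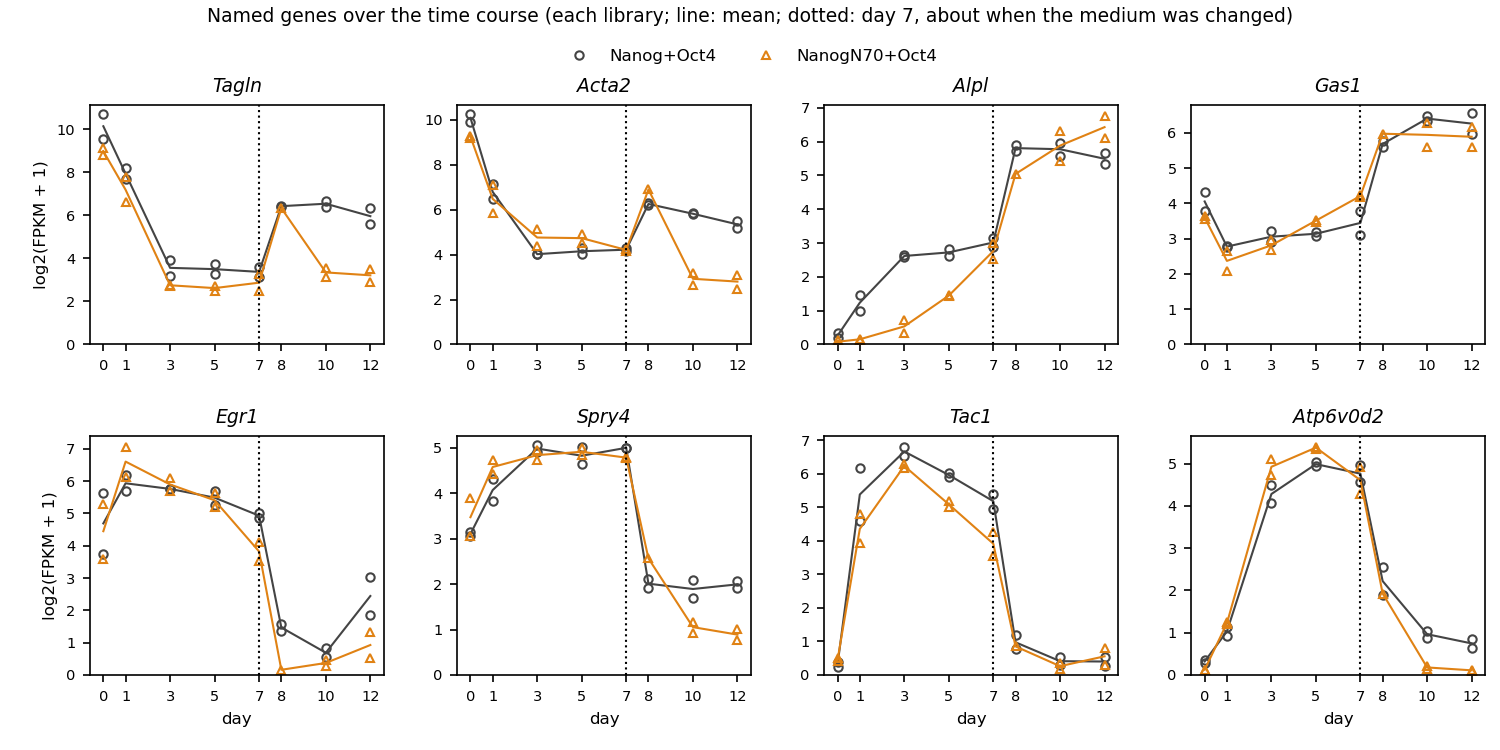
Level of 4 genes that rose and 4 that fell, as log2(FPKM + 1), on each sampled day from 0 to 12 in Nanog+Oct4 (circles) and NanogN70+Oct4 (triangles). Each symbol is 1 library, lines join the means, and the dotted line marks day 7. Egr1, Spry4, Tac1 and Atp6v0d2 dropped between day 7 and day 8 in both combinations, while Tagln and Acta2 rose in both and stood near their day 7 level or below it again on day 10 with NanogN70+Oct4.

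Several contractile and cytoskeletal genes rose. Of the 23 entries tested in the list of YAP and SRF target genes, 10 were higher in both combinations and 0 lower. A positive averaged difference was found in 22, against 9796 of 16842 over all genes. The 10 entries are 9 genes, because Ccn1 is also listed as Cyr61 with the same values. The median averaged difference of the list was 1.03, with 1.10 in Nanog+Oct4 and 1.02 in NanogN70+Oct4. The smooth muscle and pericyte markers share 3 of their 4 called members with it (Acta2, Tagln and Cnn1) and add Lmod1, an actin nucleator of smooth muscle. Of these 12 markers 8 had a positive and 4 a negative averaged difference. By the averaged test alone 8 were higher and 1 lower. In Nanog+Oct4 alone 6 were called higher and 1 lower, and in NanogN70+Oct4 alone 5 higher and 0 lower. Tagln, the actin-binding protein transgelin, ranked first among the genes that rose by the smaller of its differences in the 2 combinations, going from 11.1 and 7.85 FPKM to 84.2 and 86.1 in Nanog+Oct4 and from 8.56 and 4.61 to 79.8 in NanogN70+Oct4 (averaged difference 3.26 ± 0.32 SE, adjusted p = 6.92e-07). Acta2, smooth muscle alpha-actin, went from 16.8 and 18.4 to 77.5 and 72.4 FPKM and from 18.1 and 16.8 to 118 FPKM (averaged difference 2.36 ± 0.26 SE, adjusted p = 2.61e-06). Myl9, a regulatory light chain of non-muscle and smooth muscle myosin, went from 29.9 and 28.7 to 151 and 163 FPKM and from 5.05 and 6.33 to 72.8 FPKM (averaged difference 2.93 ± 0.33 SE, adjusted p = 4.93e-06). In all 3 genes every day 8 value was above every day 7 value of either combination.

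The later days differed between the combinations. On day 10 Acta2 stood at 56.4 and 54 FPKM with Nanog+Oct4 and at 8.06 and 5.33 with NanogN70+Oct4, where it had been at 29.5 and 22 on day 5. Tagln stood at 101 and 83.8 FPKM on day 10 with Nanog+Oct4 and at 10.8 and 7.81 with NanogN70+Oct4, and Myl9 at 109 and 97.4 and at 6.47 and 5.11. The high NanogN70+Oct4 value of day 8 is in each case that of 1 library, so its spread was taken from the other groups. MEF carried far more of these transcripts than any day 8 library, at 770.1 and 1153 FPKM for Acta2 and 707 and 1118 for Tagln, and mES almost none, at 0 and 0.174. Cnn1, calponin, rose from under 0.4 FPKM in all 4 day 7 libraries to 3.43 and 2.66 FPKM in Nanog+Oct4 and 6.14 in NanogN70+Oct4. The other members of the list that rose were Ccn1, Ajuba, Actg2, Tpm2 and Fhl2, with averaged differences from 1.03 for Fhl2 to 1.47 for Actg2. Ccn2, also listed as Ctgf, differed between the combinations, with -0.42 in Nanog+Oct4 and 1.75 in NanogN70+Oct4 (interaction adjusted p = 0.0136, limma). Pcsk7, a proprotein convertase, was ranked among the 12 leading genes that rose, but its gene on chromosome 9 (45906447 to 45932107, GRCm38) overlaps Tagln (45929628 to 45936058), and reads from the shared stretch cannot be told apart in these values.

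SRF binds the CArG box, and the promoter windows of the members (RefSeq, GRCm38.p6, 250 bases before to 50 after the start) were searched for it by name on both strands. It was present in 2 of the 68 genes that rose and had a window in the table, Myl9 and Fhl2, which is 2.94% against 1.68% of all tested genes and 1.81% of all promoters in the table. Of the genes that fell 2 of 117 held it (1.71%), Ncoa7 and Gm3752. Of the 9 YAP and SRF genes that rose, 7 had a window and 2 of these held the box. The 2 genes are shown because they carry it among members that rose together, with the box in capitals and everything else in lower case, 5′ to 3′ on the strand of the gene. The Myl9 window is chr2:156775214-156775513 on the plus strand, with the box starting 161 bases before the start. For Fhl2, a LIM-domain cofactor, the window is that of 1 of the 2 starts that had a box, chr1:43163912-43164211 on the minus strand, with the box starting 31 bases before it.
Myl9: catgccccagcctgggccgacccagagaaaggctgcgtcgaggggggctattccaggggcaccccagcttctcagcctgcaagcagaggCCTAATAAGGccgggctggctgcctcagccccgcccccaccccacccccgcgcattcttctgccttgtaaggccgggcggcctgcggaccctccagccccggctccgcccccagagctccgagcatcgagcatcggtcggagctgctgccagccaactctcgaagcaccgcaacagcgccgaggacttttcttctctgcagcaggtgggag
Fhl2: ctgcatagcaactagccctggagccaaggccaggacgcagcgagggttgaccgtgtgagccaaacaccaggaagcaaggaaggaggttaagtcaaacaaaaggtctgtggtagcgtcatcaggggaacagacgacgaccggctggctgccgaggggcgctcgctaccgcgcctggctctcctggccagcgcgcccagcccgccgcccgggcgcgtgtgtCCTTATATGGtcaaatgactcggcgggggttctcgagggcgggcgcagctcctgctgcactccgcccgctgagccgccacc
The AP-1 site TGANTCA was found in 11.8% of the windows of genes that rose and in 12.0% of those that fell, against 6.32% of all tested genes and 8.97% of all promoters. The TCF/LEF site CTTTGAT was found in 0 of 68 and in 2.56%, against 3.12% of tested genes, and the STAT site TTCNNNGAA in 2.94% and 7.69%, against 8.07%. For the genes that fell the TCF/LEF and STAT shares (3 and 9 of 117) were near those of all tested genes.

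Some genes of the extracellular matrix rose as well. Of 38 matrix and basement membrane genes, 6 were higher in both combinations (Col1a1, Col1a2, Ogn, Fmod, Mfap5 and Fbln5) and 0 lower, with a median averaged difference of 0.79, made up of 1.25 in Nanog+Oct4 and 0.28 in NanogN70+Oct4. The averaged test alone called 24 higher and 4 lower, against 1799 and 1645 of 16842 over all genes. In Nanog+Oct4 alone 23 of the 38 were called higher and 1 lower, against 5 higher and 3 lower in NanogN70+Oct4, and the interaction called 11 of them smaller with NanogN70+Oct4. Col1a2, a chain of type I collagen, went from 136 and 134 FPKM to 434 and 482 in Nanog+Oct4 and from 65.6 and 44 to 163 in NanogN70+Oct4 (averaged difference 1.67 ± 0.16 SE, adjusted p = 4.87e-07). Fmod, fibromodulin, was under 0.7 FPKM in all 4 day 7 libraries and stood at 13.6 and 29.8 in Nanog+Oct4 and 3.11 in NanogN70+Oct4 on day 8. Its rise was larger in Nanog+Oct4, by -2.09 (interaction, NanogN70+Oct4 minus Nanog+Oct4, adjusted p = 0.0079, limma). Ogn, osteoglycin, a small leucine-rich proteoglycan, rose by 2.68 ± 0.34 (SE) and missed the threshold in NanogN70+Oct4 alone (adjusted p = 0.0506). Of 26 TGF-beta target entries 6 rose and 0 fell, and all 6 are also in the cytoskeletal or matrix list.

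Other leading genes that rose were of several kinds. Alpl, tissue-nonspecific alkaline phosphatase, which is high in pluripotent cells, went from 7.96 and 6.32 FPKM to 58.3 and 52 in Nanog+Oct4 and from 6.96 and 4.78 to 32 in NanogN70+Oct4 (averaged difference 2.54 ± 0.20 SE, adjusted p = 9.87e-08). Alpl was also the 1 of 7 cartilage and bone markers tested that rose in both combinations, and 0 fell. Igfbp2, an IGF-binding protein, went from 1.74 and 1.9 to 15.9 and 34.1 FPKM and from 31.1 and 23.3 to 151 FPKM (averaged difference 2.78 ± 0.26 SE, adjusted p = 4.87e-07). Both genes were higher in mES, at 147 and 389.8 FPKM, than in the day 7 libraries. For Igfbp2 the NanogN70+Oct4 values of day 7 already lay between the Nanog+Oct4 values of day 8. Gas1, a growth-arrest protein of the cell surface, went from 12.8 and 7.6 to 54.1 and 47.1 FPKM and from 17.7 and 17.3 to 62 FPKM (averaged difference 2.00 ± 0.21 SE, adjusted p = 1.89e-06). Gadd45b, a stress-response gene, went from 4.24 and 5.86 to 21.4 and 20.8 FPKM and from 3.68 and 7.53 to 21.6 FPKM (averaged difference 1.86 ± 0.23 SE, adjusted p = 1.44e-05). It and Gadd45a were the 2 of 24 p53 targets and cell cycle inhibitors that rose, and 0 of 24 fell. The stromal surface proteins Lrrc15 and Cd248 rose by 2.09 ± 0.19 and 2.12 ± 0.21 (SE). Saa3, an acute-phase protein, went from 4.4 and 0.55 to 147 and 114 FPKM in Nanog+Oct4 but only from 0.845 and 0.347 to 5.93 in NanogN70+Oct4. With the chemokine Ccl2 it made up the 2 of 23 inflammatory genes that rose.

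Genes downstream of LIF and of the GSK3 inhibitor in the later medium were also listed. Whether iCD3 already held either of them is not given in the sources used here. Of 24 canonical Wnt target genes 7 passed the averaged test alone as higher and 2 as lower. Over all 16842 genes the counts were 1799 and 1645, so the share called lower was near that of all genes. In the own tests 7 of the Wnt genes were called higher and 0 lower in Nanog+Oct4, and 2 in each direction in NanogN70+Oct4. Their summed level was 245 to 274 FPKM on day 7 and 541 to 548 FPKM on day 8 in Nanog+Oct4, and 389 to 485 and 439 FPKM in NanogN70+Oct4. By the shared rule 1 rose, Notum, a secreted Wnt deacylase, by 1.08 ± 0.17 (SE, adjusted p = 0.000141), and it was no longer called without Nanog+Oct4 day 8 replicate 1 (1.01) or NanogN70+Oct4 day 7 replicate 2 (0.97). Axin2, a feedback gene of the pathway, had differences of 1.26 in Nanog+Oct4 and 0.54 in NanogN70+Oct4 and did not pass in the latter (adjusted p = 0.314). Of 19 LIF and Stat3 genes 1 rose, Klf4, from 5.6 and 3.92 to 11.4 and 11.4 FPKM and from 14.4 and 7.11 to 33.5 FPKM (averaged difference 1.37 ± 0.28 SE, adjusted p = 0.00155), although it was no longer called without Nanog+Oct4 day 7 replicate 2 (1.27). Socs3, a Stat3 feedback gene, had differences of 1.12 and 0.14, neither past the threshold. Of 25 naive pluripotency genes Klf4 and Klf2 rose in both. In NanogN70+Oct4 alone 16 of the 25 were called higher, with a median of 1.60, against 1 in Nanog+Oct4 with a median of 0.17, and the interaction called 10 of them larger with NanogN70+Oct4. Klf2, a Krüppel-like factor of naive cells, stood at 0.487 and 1.03 FPKM on day 7 and 2.27 and 3.53 on day 8 with Nanog+Oct4, against 7.69 and 4.98 and 99.5 with NanogN70+Oct4. Its call was lost without Nanog+Oct4 day 7 replicate 1 (2.36) or day 8 replicate 2 (2.36).

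Besides Egr1 and Etv4, the 12 leading genes that fell belonged to no list. Tac1, the precursor of substance P, went from 30.3 and 41.3 FPKM to 0.701 and 1.27 in Nanog+Oct4 and from 10.8 and 18.3 to 0.806 in NanogN70+Oct4 (averaged difference -3.64 ± 0.29 SE, adjusted p = 9.12e-08). Iapp, the hormone amylin, went from 7.98 and 13.8 to 1.42 and 0.393 FPKM and from 76.1 and 128 to 8.61 FPKM (averaged difference -3.01 ± 0.25 SE, adjusted p = 1.31e-07). Both groups were apart in each gene, and Iapp was higher with NanogN70+Oct4 on either day. Icos, a costimulatory receptor of T cells, went from 11.7 and 12.7 to 0.178 and 0.0847 FPKM and from 3.96 and 5.65 to 0.0844 FPKM (averaged difference -2.97 ± 0.20 SE, adjusted p = 1.75e-08). Themis, a T cell signalling protein, had an averaged difference of -3.05 ± 0.21 (SE), and Atp6v0d2, a subunit of the vacuolar proton pump known from osteoclasts, one of -2.61 ± 0.17. In MEF and mES these 5 genes stood at 0 to 1.18 FPKM, so the day 7 levels had arisen after infection. Tac1 with Nanog+Oct4 was at 0.315 and 0.169 FPKM on day 0, 111 and 90.9 on day 3 and 63.9 and 59.2 on day 5. With NanogN70+Oct4 it was at 0.328 and 0.408 FPKM on day 0, 70.8 and 78.1 on day 3 and 35.2 and 31.1 on day 5. In both combinations the day 7 values of Tac1 thus already lay below those of day 3. From day 3 to day 7 mean Icos went from 23.5 to 12.2 FPKM with Nanog+Oct4 and from 21.0 to 4.81 with NanogN70+Oct4. Mean Themis went from 46.9 to 39.2 and from 32.4 to 14.5 FPKM. Iapp went from 4.65 to 10.9 and from 103 to 102 FPKM, and Atp6v0d2 from 18.7 to 26.4 and from 29.7 to 24.0 FPKM. The remaining leading genes were Dgkk, a diacylglycerol kinase, Rgs4, a regulator of G-protein signalling, Enpp1, an ectonucleotide pyrophosphatase, and Trpc5, a cation channel, with averaged differences from -2.94 for Dgkk to -2.35 for Enpp1. Rps28, a ribosomal protein gene, was also among them (averaged difference -3.91 ± 0.99 SE, adjusted p = 0.00835), but it passed in neither combination alone (adjusted p = 0.107 and 0.0579). None of the 25 other ribosomal protein genes tested as a list was called in limma, and at an unadjusted p under 0.05 the count was 5 higher and 0 lower.

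Of 29 interferon-stimulated genes tested, 4 were lower in both (Oasl1, Usp18, Stat2 and Irf7) and 0 were higher. A negative averaged difference was found in 26, against 6976 of 16842 over all genes. The median was -1.41 in Nanog+Oct4 and -0.32 in NanogN70+Oct4, with 20 and 2 members called lower in the own test of each, and the interaction called 7, all with the smaller fall in NanogN70+Oct4. Oasl1, an OAS-like antiviral protein, went from 5.74 and 8.28 to 1.55 and 1.33 FPKM and from 5.15 and 2.66 to 0.748 FPKM (averaged difference -1.57 ± 0.23 SE, adjusted p = 7.62e-05). Irf7 and Usp18 each lost the call without NanogN70+Oct4 day 7 replicate 1, with averaged differences of -1.04 and -1.30. Genes of lipid synthesis had a similar tilt. Of 15 fatty acid synthesis genes 1 was lower in both, Scd1, a desaturase, which went from 200.4 and 206 to 36.8 and 31.5 FPKM in Nanog+Oct4 and from 203 and 202 to 98 in NanogN70+Oct4, with an interaction of 1.504 (adjusted p = 0.00554, limma). Of 24 sterol synthesis genes 20 passed limma's adjusted averaged test as lower (22 at an unadjusted p under 0.05) and 0 as higher. Over all 16842 genes the counts were 1645 lower and 1799 higher. Of the 24 sterol genes 0 met the size limit in both combinations. Here 21 were called lower in Nanog+Oct4 (median -1.82) and 0 in NanogN70+Oct4 (median -0.40), and the interaction called 14 of them.

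Single members of further lists also moved in both. Slc7a11, a cystine transporter, and Mmp3, a matrix metalloprotease, fell, with averaged differences of -1.63 and -2.04. Aldh1a3, a retinal dehydrogenase, went from 16.5 and 16.2 to 3.02 and 3.32 FPKM and from 17.6 and 13.5 to 2.22 FPKM, while Tgm2, a retinoid-induced transglutaminase, rose by 1.86 ± 0.22 (SE). Klf9, which responds to glucocorticoid and thyroid hormone, rose by 1.42 ± 0.18. Hspb1, a small heat shock protein, and Cebpb, a bZIP factor, rose by 1.23 and 1.28. H2-Q6, a class I gene with close paralogs between which reads can be split, had an averaged difference of -1.14 and was not called in 3 of the 6 fits that each left out 1 library. Slc7a11 was not called without Nanog+Oct4 day 8 replicate 2 (-1.38), and Hspb1 not without NanogN70+Oct4 day 7 replicate 2 (1.14).

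Of the introduced factors Nanog fell in both. Its values, to which the virus contributes, went from 1215 and 1528 FPKM to 466 and 469.8 in Nanog+Oct4 and from 712 and 723 to 327 in NanogN70+Oct4 (averaged difference -1.34 ± 0.16 SE, adjusted p = 1.01e-05). MEF held 0.235 and 0.229 FPKM and mES 365. Pou5f1 stood at 6549.6 and 4321 FPKM on day 7 and 3838 and 3388 on day 8 in Nanog+Oct4, and at 2683 and 1804 and 1001 in NanogN70+Oct4, with an averaged difference of -0.85 ± 0.29 (SE) and a Nanog+Oct4 difference of -0.56, under the size limit. Reads of the virus and of the endogenous gene cannot be told apart in these values. Ss18, part of which is fused to Nanog in the NanogN70+Oct4 cells, read 74.2 and 74.1 FPKM on day 7 there against 32.6 and 31.7 in Nanog+Oct4, and its averaged difference was -0.28 (adjusted p = 0.144).

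**Figure D3:**
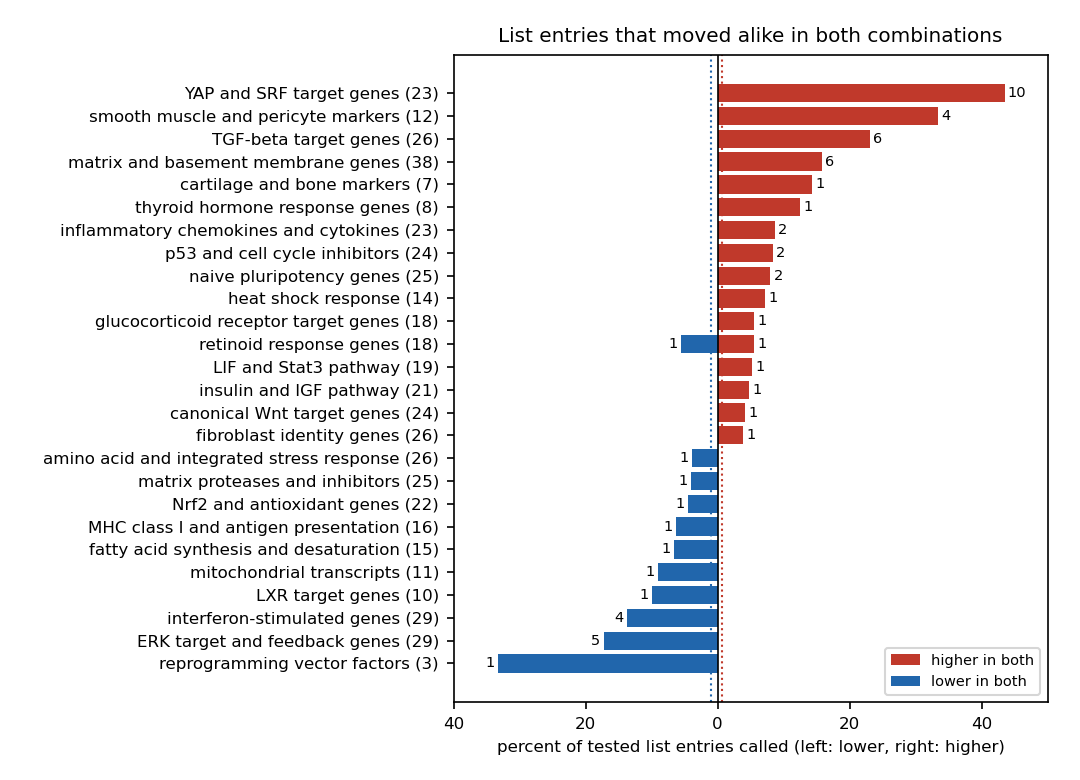
Share of the tested entries of each gene list (number tested in parentheses) that were called higher (red, right) or lower (blue, left) in both combinations, with the count at the bar. Dotted lines mark the shares over all genes tested, 0.653% higher and 0.998% lower, and lists with no called entry are left out. Lists share members, so bars are not independent.

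Of 47 lists, 26 had at least 1 called entry, 15 of them only higher, 10 only lower and 1 both. Marker lists of other cell types were read for the same step. Macrophage, endothelial, skeletal muscle, neural, adipocyte, keratinocyte, primitive endoderm, trophoblast and blood markers had 0 entries called in both combinations in limma, with at most 5 entries of a list higher and at most 3 lower at an unadjusted p under 0.05. The summed level of the 12 macrophage markers ranged from 7.56 to 23.6 FPKM on day 7 and from 10.7 to 36.9 FPKM on day 8, and that of the 3 blood markers from 1.49 to 4.00 and from 0.375 to 1.17 FPKM. Of 8 trophoblast markers 5 were higher and 1 lower in NanogN70+Oct4 alone (median 1.52), against 0 in Nanog+Oct4 (median -0.01), and the interaction called 4 larger and 1 smaller with NanogN70+Oct4. Their summed level was 17.6 to 20.1 FPKM on day 7 and 61.9 FPKM on day 8 in NanogN70+Oct4, and 2.96 to 3.37 FPKM on both days in Nanog+Oct4. The 4 keratinocyte markers, 1 of them called in NanogN70+Oct4 alone, summed to 8.72 to 10.6 FPKM and to 37.0 FPKM there, and to 11.9 to 14.2 FPKM on both days in Nanog+Oct4. The 9 primitive endoderm markers, 2 of them called higher in Nanog+Oct4 alone, summed to 455 to 459 FPKM on day 7 and 976 to 1065 on day 8 there. In NanogN70+Oct4 they summed to 257 to 271 and to 343 FPKM. The 14 neural markers summed to 368 to 432 and to 563 to 618 FPKM in Nanog+Oct4, and to 197 to 286 and to 279 FPKM in NanogN70+Oct4. The part of these cells in the results was not tested. Of 26 fibroblast identity genes 1 rose (Cebpb) and 0 fell, and their summed level was 3684 to 3967 FPKM on day 7 and 3615 to 3686 on day 8 in Nanog+Oct4, and 1733 to 1859 and 1293 in NanogN70+Oct4. The 12 smooth muscle and pericyte markers, whose members overlap the cytoskeletal list, summed to 119 to 157 FPKM on day 7 and 284 to 301 FPKM on day 8 in Nanog+Oct4, and to 46.1 to 64.8 and 244 in NanogN70+Oct4. Cell cycle and replication genes (33 tested) had 0 called in both under limma, with 14 higher and 0 lower at an unadjusted p under 0.05 and medians of -0.15 in Nanog+Oct4 and 0.75 in NanogN70+Oct4.

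Day 10 against day 5 was used to ask whether the same genes differed across the medium change in other libraries. This step spans the change and shares no library with the comparison above. Both came from 1 fit with a common estimate of the spread. In Nanog+Oct4 the relative depth was 0.891 to 1.07 on day 5 and 1.89 to 3.15 on day 10. Depth and day therefore cannot be told apart there in this step either. In NanogN70+Oct4 the relative depth was 0.932 to 1.08 over both days. By the same rule 331 genes (1.97% of those tested) were higher and 400 (2.38%) lower on day 10 in both combinations, together 731 (4.34%). The balance turned after rescaling to a common total, with 645 of 1179 higher, and with a pseudocount of 0.1, with 1050 of 1794. It also turned with no fold limit, with 3964 of 6884 higher, and without Nanog+Oct4 day 10 replicate 1, with 465 of 891. Of the 168 genes that fell between day 7 and day 8, 148 (88.1%) were lower in both and 0 higher. Of the 110 that rose, 45 (40.9%) were higher in both and 0 lower. In Nanog+Oct4 alone 86 of the 110 were higher (78.2% against 6.72% of all genes), and in NanogN70+Oct4 alone 48 were higher (43.6% against 13.2%) and 7 lower. For the genes that fell the shares were alike, 156 (92.9% against 4.38%) in Nanog+Oct4 and 154 (91.7% against 11%) in NanogN70+Oct4. The median day 10 minus day 5 difference of the genes that rose was 1.74 in Nanog+Oct4 and 0.85 in NanogN70+Oct4, and that of the genes that fell -1.79 and -2.42, against 0.06 in each over all genes.

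**Figure D4:**
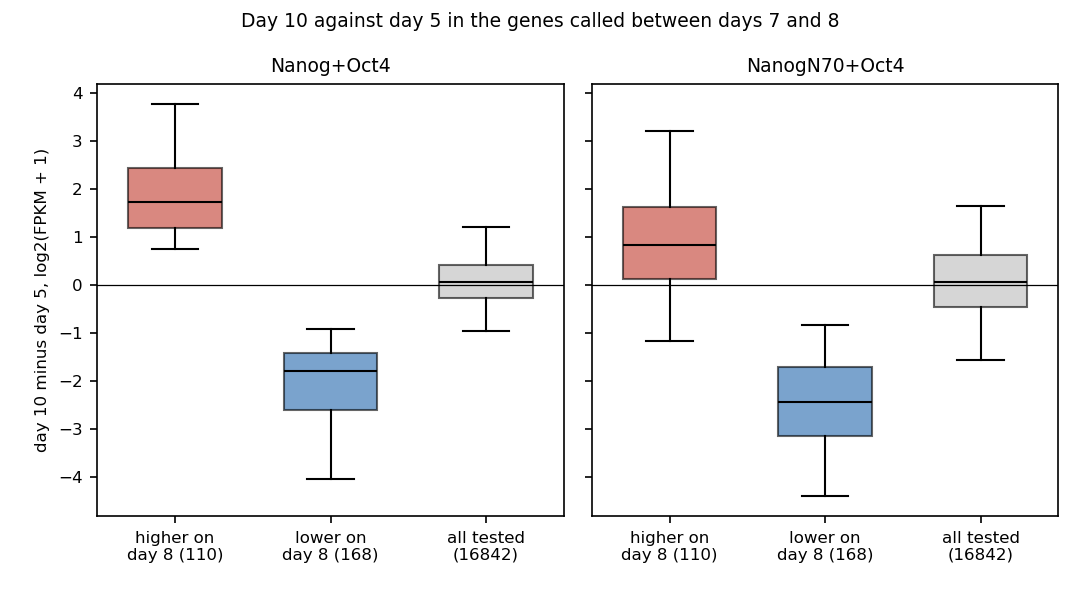
Day 10 minus day 5 difference on the log2(FPKM + 1) scale, in libraries that the day 7 to day 8 comparison did not use, for the 110 genes that rose, the 168 that fell and all 16842 tested. Boxes show quartiles and median, whiskers the 5th and 95th percentiles. The medians of the genes that fell are -1.79 and -2.42, and the box of the genes that rose lies lower with NanogN70+Oct4 (median 0.85) than with Nanog+Oct4 (1.74).

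Among single genes, Egr1 (-4.91 ± 0.38 SE, adjusted p = 4.00e-09), Spry4 (-3.39 ± 0.16 SE, adjusted p = 8.24e-12) and Tac1 (-5.19 ± 0.26 SE, adjusted p = 1.56e-11) were lower on day 10 than on day 5 in both combinations. Alpl (3.74 ± 0.18 SE, adjusted p = 1.21e-11), Igfbp2 (5.56 ± 0.23 SE, adjusted p = 3.69e-12) and Gas1 (2.85 ± 0.19 SE, adjusted p = 5.86e-10) were higher. Acta2 had a difference of 1.67 in Nanog+Oct4 and -1.81 in NanogN70+Oct4, and over the YAP and SRF list the medians were 1.15 and -0.91. Steps that did not span the change were read by the same rule. They were shorter than the step from day 5 to day 10, so their counts are not on an equal span. Day 7 against day 5 was not compared. In NanogN70+Oct4 mean Egr1 went from 41.8 to 13.4 FPKM between those days and mean Tac1 from 33.1 to 14.5. Mean Spry4 went from 29.1 to 26.5 FPKM. The steps below therefore do not show that the members were still before the change. Between day 3 and day 5, when 29 genes (0.172%) rose and 2 (0.0119%) fell in both over all tested, together 31 (0.184%), 4 of the 168 genes rose and 1 fell, and 0 of the 110 moved in limma (16 higher and 4 lower at an unadjusted p under 0.05). At that unadjusted p 39 of the 168 were higher and 16 lower. The share of all genes at an unadjusted p under 0.05 is not given for any step, so such counts are not read as many or few. In that step Nanog+Oct4 alone had 12 of the 168 higher (0.338% of all genes) and 0 lower (0.0356%), and NanogN70+Oct4 alone 5 higher (1.2%) and 4 lower (0.143%), with 3 of the 110 higher. The 5 calls among the 168 were thus a larger share than over all genes. Between day 10 and day 12, when 63 genes (0.374%) rose and 2 (0.0119%) fell, together 65 (0.386%), 0 of the 278 were called in limma. At an unadjusted p under 0.05 the count was 9 higher and 7 lower of the 110, and 12 higher and 11 lower of the 168. Nanog+Oct4 alone had 2 of the 110 and 2 of the 168 higher in that step (1.54% of all genes) and 0 lower (0.0356%), and NanogN70+Oct4 alone 1 of the 110 higher (1.25%) and 0 of either lower (0.131%).

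The genes that rose and fell differed in where else they were expressed. Of those that fell, 154 of 168 (91.7%) had a lower level in both MEF libraries than in any day 7 library, against 34.4% of all genes tested, and 80 (47.6%) were under 1 FPKM in both MEF libraries and in mES, against 14.9%. Of those that rose, 74 of 110 (67.3%) had a higher level in both MEF libraries than in any day 7 library, against 15.9% of all genes, and 43 (39.1%) were at least 4-fold higher in MEF than in mES on the log2(FPKM + 1) scale, against 6.53%. A smaller number, 14 (12.7%), had an mES level that exceeded the MEF level 4-fold or more, against 6.45%, Alpl and Klf2 among them. The median level of the genes that fell was 0.516 FPKM in MEF, 17.8 and 4.47 FPKM on day 7 and day 8 in Nanog+Oct4, 11.0 and 2.44 FPKM in NanogN70+Oct4, and 0.0692 FPKM in mES. That of the genes that rose was 15.7 FPKM in MEF, 3.13 and 15.0 FPKM in Nanog+Oct4, 3.45 and 10.1 FPKM in NanogN70+Oct4, and 3.92 FPKM in mES. The day 7 levels entered the choice of the genes, so a gene that fell had to be expressed on day 7, and these shares carry no test.

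**Figure D5:**
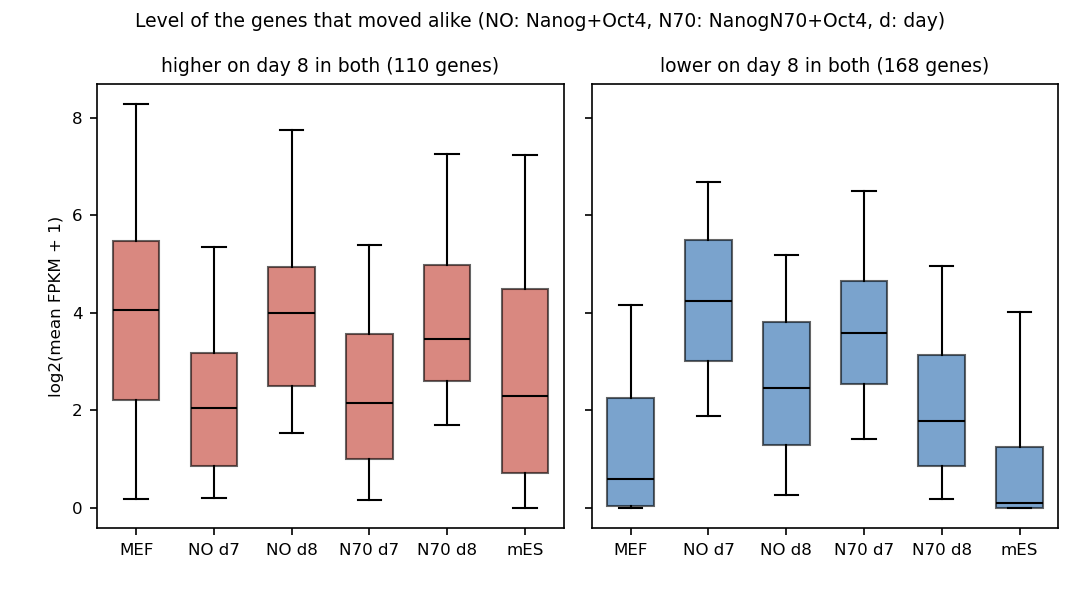
Level of the 110 genes that rose (left) and the 168 that fell (right) as log2(mean FPKM + 1) in MEF, Nanog+Oct4 (NO) and NanogN70+Oct4 (N70) on days 7 and 8, and mES. Boxes show quartiles and median over genes, whiskers the 5th and 95th percentiles. The median of the genes that fell is 0.516 FPKM in MEF and 17.8 FPKM in Nanog+Oct4 on day 7.

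The size of the change was compared between the combinations by the interaction. It called 360 genes (2.14%) larger and 434 (2.58%) smaller with NanogN70+Oct4 over all tested, together 794 (4.71%). After rescaling to a common total 245 of the 730 called were larger. The balance turned with the compared days alone in the fit, where 151 of the 251 called were larger. Among the members the interaction called 9 of the 110 that rose and 6 of the 168 that fell. By annotation 94 of the 110 genes that rose and 155 of the 168 that fell were protein-coding, against 14506 of 16842 tested. Small RNA genes, whose short gene models give unsteady FPKM, were 12 and 1 of these, against 591 of 16842. Just inside the size limit were Sdcbp, with a smaller difference of 1.001 in size, and Pik3cg and A4galt at 1.002, and just outside were Ctps at 0.997 and Wscd1 at 0.996.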

How the data were processed

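Bulk mRNA-seq was analysed for 7 libraries of days 7 and 8 within a time course of 31 libraries in 16 groups of combination and day. The authors trimmed reads with Trim Galore 0.6.4, aligned them to mm10 with HISAT2 2.2.1 and computed FPKM per gene with StringTie 2.2.1, and the deposited values are these FPKM. FPKM scales each library to its own total, so a large shift in abundant transcripts moves all other genes. The gene annotation and strand setting are not given in the sources used here.

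A gene was kept where 2 or more of the 31 libraries reached 1 FPKM, and log2(FPKM + 1) was fitted with limma 3.58.1 (R 4.3.3, trended variance, Benjamini-Hochberg adjustment over 16842 genes, 2-sided). Fold changes on this scale understate those of low genes. The averaged contrast weights both combinations equally and serves as the block. Adjusted p-values in the text are from this fit. In simulated data 200 genes were moved by 2 on the log2 scale in both combinations, above the size limit. They were drawn from genes well expressed on day 7 in both. Of these 195 (97.5%) were recovered in the shared day 7 to day 8 comparison, with 1 other gene called. All other genes were simulated with no change, independent noise and no depth shift. Recovery of smaller changes or of low genes was not tested.

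The 12 rising and 12 falling genes with the largest smaller-of-2 difference were named, leaving out predicted and small RNA genes, with up to 4 called members per list, the 4 largest interactions each way, and Pou5f1, Nanog and Ss18. Maff, Dusp4, Spry2, Spred1, Ccn2, Axin2, Socs3, Gm34921 and the further members of short lists were named after their values were seen. The members and the 47 lists were chosen with earlier results of these data known. Symbols were matched to RefSeq for 34593 of 37108 entries. Alternatives covered the pseudocount (0.1), filters, scaling, the replicate block, the libraries in the fit and leaving out each library. Other assays of the series were not used here, and some single-gene values are not reported here.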

Additional observations from a re-analysis of the deposited data

Results flagged for a closer look

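The change from day 7 to day 8 differed between the combinations for 794 genes by limma's interaction test. Values here are the NanogN70+Oct4 change minus the Nanog+Oct4 change on the log2(FPKM + 1) scale. The 4 most negative were those of Rn7s1 (-6.06) and Rn7s2 (-6.01), which are near-identical non-coding RNA genes, Clec3b (-3.70) and Saa3 (-3.36). The 4 most positive were those of Nts (3.94), Calcoco2 (3.85), Sele (3.50) and Dppa5a (3.49). Among the other named genes that moved alike, Fmod (-2.09), Klf2 (2.66) and Scd1 (1.504) also differed. Sele fell in both, and lost that call without NanogN70+Oct4 day 7 replicate 1 (averaged difference -2.72). The Nanog+Oct4 libraries of day 8 were deeper than those of day 7 and the NanogN70+Oct4 day 8 group had 1 library, and the part of either in these differences was not tested.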

How the results depend on the processing

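With a pseudocount of 0.1 the shared counts were 374 higher and 401 lower, with a mean of at least 5 FPKM 73 and 107, after rescaling to a common total (TPM) 209 and 264, and with no fold limit 1639 and 1571. Genes called in both on their own (209) came to 135 at 5 FPKM and 126 with the compared days alone in the fit. Nanog+Oct4 alone (1188) came to 652 at 5 FPKM, and NanogN70+Oct4 alone (772) to 346, and to 494 with the compared days alone. The interaction count (794) was 470 with pseudocount 0.1, 385 at 5 FPKM and 251 with the compared days alone. Day 10 against day 5 (731) gave 1794, 440, 1179 and 6884 under pseudocount 0.1, 5 FPKM, TPM and no fold limit. Day 5 against day 3 (31) gave 112, 17, 67 and 451, and 5 with the compared days alone, and day 12 against day 10 (65) gave 228, 8, 145 and 930. The cause was not tested.

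Leaving out 1 library at a time gave 92 to 143 higher, 155 to 180 lower, 146 to 226 in both, 967 to 1308 in Nanog+Oct4, 530 to 786 in NanogN70+Oct4 and 455 to 807 in the interaction (455 without Nanog+Oct4 day 7 replicate 2, 509 without day 8 replicate 1). It gave 606 to 891 for day 10 against day 5, 22 to 38 for day 5 against day 3, and 45 to 103 for day 12 against day 10 (103 without NanogN70+Oct4 day 10 replicate 2). The NanogN70+Oct4 day 8 library could not be left out. By label, samples of different groups shared only a replicate number. The replicate 1 minus replicate 2 differences correlated across genes at 0.099 between Nanog+Oct4 day 7 and day 8. The value was 0.39 between day 7 of the 2 combinations, and 0.11 between Nanog+Oct4 day 8 and NanogN70+Oct4 day 7. Day 7 libraries with the same number were therefore not fully independent between the combinations. The replicate block gave 105 higher, 166 lower, 222 in both, 1210, 780, 886, 731, 31 and 66 in the order above, and Scd1 (-1.76) and Gadd45a (1.30) lost their calls in it. Of 54 named genes called, 42 kept the call in every setting run, and no direction reversed. Restricting to protein-coding genes, chosen after seeing the data, gave 94 higher and 155 lower. The depth is known only relative to 1 library, which limits statements on genes near 0.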

Other observations

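Some further members can be grouped by what they encode. The groups were put together from called genes after their values were seen, so their direction follows from that choice, and related genes that did not move were not counted. Among the genes that fell were 4 hormone and neuropeptide genes (Tac1, Iapp, Npy and Cck), with averaged differences from -3.64 to -1.53, and 6 receptors for neuropeptides and transmitters (Npy1r, Prokr1, Avpr1a, Htr1b, Chrm2 and Calcrl), from -2.32 to -1.19. A further 8 were immune-related genes (Icos, Themis, Cd4, Cd83, Il10, Ebi3, Tnfsf11 and H60b), from -3.05 to -1.29. Under 1 FPKM in MEF and mES were 2 of the 4 hormone and neuropeptide genes, 2 of the 6 receptors and 7 of the 8 immune-related genes. The share was 47.6% of the 168 genes that fell and 14.9% of all genes tested. All 18 genes of these groups were also called lower on day 10 than on day 5 in both combinations, as were 148 of the 168 genes that fell (88.1%) and 2.38% of all genes. Among the genes that rose were 6 secreted signalling proteins (Wnt4, Inhbb, Edn1, Nrtn, Ntn1 and Dlk1), from 1.14 to 2.03, of which 3 were called higher on day 10 than on day 5, against 45 of the 110 genes that rose (40.9%). Of these 6 proteins 0 were under 1 FPKM in MEF and mES, against 5.45% of the genes that rose.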
